A study of Homo sapiens with 2 samples.

Results

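Genes that the transcription factor NRF2 is known to drive, together with the enzymes that make and use glutathione, were examined in Ca9-22 cells, an established human line of a squamous cell carcinoma of the gingiva. The members were chosen by name from a list of 47 genes, compiled with earlier results of these arrays known, and 46 of them had a probe set named here, out of 19775 genes measured in all. FTH1, the heavy chain of ferritin, is not analysed here. The cells had been infected with a PTHLH vector or with an empty vector, both carrying blasticidin resistance, and both cultures had been kept under blasticidin selection as stably transduced cells. Total RNA of 1 culture of each kind, PTHLH vector and empty vector, was hybridised to 1 Affymetrix U133 array. A single culture of each kind leaves the spread between cultures unknown, so all differences are given as descriptions without a test. A member's difference can therefore not be told apart from a difference between these 2 cultures.

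NRF2, encoded by NFE2L2, is held in the cytoplasm by KEAP1, which hands it to a ubiquitin ligase for degradation. Oxidants and electrophiles modify KEAP1, and NRF2 then enters the nucleus, pairs with small MAF proteins and binds antioxidant response elements near genes for glutathione synthesis, thioredoxin reduction, NADPH supply, quinone reduction and heme breakdown. Glutathione, a tripeptide with a reactive cysteine, is used by peroxidases to reduce peroxides and by transferases to tag electrophiles for export. In squamous cancers this pathway is known for its activation by mutations of NFE2L2 or KEAP1.

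Promoter sequence is shown for 7 members that held the core letters of the antioxidant response element, TGACNNNGC, on either strand. They were picked after their values were seen, to set GSTA4 and TXNRD1, both past 1.5-fold, beside others within it. The sequences were taken from RefSeq (GRCh38.p14) in windows of 300 bases, 250 before and 50 after an annotated start. Of the 47 members, 34 had such a window, and in 10 of the 34 (29.4%) at least 1 window held the letters, against 16.1% of all 27305 genes with a window. The list was made partly of known NRF2 targets, and the letters were chosen after the values were seen. The 2 shares are thus a description and no test. TXNRD1 is shown at both of its starts. GCLM and ME1 had log2 differences, PTHLH minus empty vector, of -0.37 and -0.29, and GSTP1, GPX2 and KEAP1 of 0.09, 0.09 and 0.30. Capitals mark the matches, and each sequence runs 5′ to 3′ on the gene's own strand.
GSTA4, chr6:52995240-52995338, minus strand: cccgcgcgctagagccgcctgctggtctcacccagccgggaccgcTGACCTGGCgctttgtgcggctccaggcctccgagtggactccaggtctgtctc
TXNRD1, upstream start, chr12:104215635-104215824, plus strand: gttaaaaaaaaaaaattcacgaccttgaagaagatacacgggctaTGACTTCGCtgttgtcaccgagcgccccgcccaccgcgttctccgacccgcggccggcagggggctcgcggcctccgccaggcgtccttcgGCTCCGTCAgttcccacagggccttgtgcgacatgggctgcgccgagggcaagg
TXNRD1, downstream start, chr12:104286885-104286983, plus strand: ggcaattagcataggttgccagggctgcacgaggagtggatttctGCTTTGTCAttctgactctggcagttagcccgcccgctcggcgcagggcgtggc
GCLM, chr1:93909411-93909509, minus strand: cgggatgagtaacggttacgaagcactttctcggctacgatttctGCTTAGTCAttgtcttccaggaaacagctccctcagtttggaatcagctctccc
ME1, chr6:83431002-83431233, minus strand: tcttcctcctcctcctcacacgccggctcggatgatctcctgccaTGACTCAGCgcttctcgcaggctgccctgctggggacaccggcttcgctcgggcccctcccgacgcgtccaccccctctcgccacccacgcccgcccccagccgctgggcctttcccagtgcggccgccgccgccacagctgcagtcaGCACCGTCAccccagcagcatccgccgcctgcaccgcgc
GSTP1, chr11:67583701-67583799, plus strand: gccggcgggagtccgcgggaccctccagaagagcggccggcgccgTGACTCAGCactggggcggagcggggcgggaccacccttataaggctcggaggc
GPX2, chr14:64942814-64942912, minus strand: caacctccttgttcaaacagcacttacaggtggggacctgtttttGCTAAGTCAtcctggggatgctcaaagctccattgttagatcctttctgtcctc
KEAP1, chr19:10502749-10502870, minus strand: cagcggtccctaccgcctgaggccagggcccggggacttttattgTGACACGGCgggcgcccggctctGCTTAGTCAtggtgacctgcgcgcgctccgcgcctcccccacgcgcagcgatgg
The match of GSTA4 lay at -9 to -1 from its start, that of GCLM at -34 to -26 and that of GSTP1 at -66 to -58. The matches of ME1 at -137 to -129 and of GSTP1 also hold TGACTCA, the letters bound by AP-1. The other members with a match, not shown, were GSTO1, MGST1 and PGD, with differences of 0.25, -0.50 and 0.03. HMOX1 had no window and was not searched, and letters outside the windows were not looked for in any gene. These matches describe letters in a window and were not tested as binding sites.

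Each array gave 54675 intensities in arbitrary units on a linear scale, 1 per probe set, a group of oligonucleotides for one transcript, with a median of 19.4 on the PTHLH array and 19.5 on the empty vector array. The cells carried squamous markers. All 7 measured genes of a squamous list, among them KRT5, KRT14 and SFN, lay between 447 and 14483 on the PTHLH array and between 390.1 and 14704 on the empty vector array. A description field of the labels names another line, CX-1, and the gene RAB3C, against the titles, which were followed. The 8 measured markers of colon epithelium reached at most 37.1 and 49.1 on the PTHLH and empty vector arrays. The highest value among fibroblast markers was 34.3 and 28.6 on these arrays and among leukocyte markers 59.8 and 51.1, whereas VWF, on the endothelial list, had 128 and 129. PTHLH has no probe set named here, so the vector's own transcript is not analysed here.

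The differences were small for most members, with 27 of the 46 below 0 and 19 above it. On the PTHLH array, GSTA4, TXNRD1 and HMOX1 were lower by 1.5-fold or more, the threshold the study used, and GPX3 was higher by that much at a level below the array medians. At 2-fold, 1 member, GSTA4, was lower (against 0.733% of all genes) and 0 were higher (0.182%). Each member was read from its brightest probe set, the one with the highest mean log2 intensity. The share of members lower (6.52%) stood beside 3.52% of all genes, and the share higher (2.17%) beside 1.97%, and neither is a result about the members. The median log2 difference, PTHLH minus empty vector, was -0.06 over the members and 0 over all genes. Of the 42 members above the median of both arrays, 26 (61.9%) had a difference below 0, as did 48.6% of the 12982 genes at such levels. These shares describe a list compiled with earlier results known and are no result about the members. In 23 of the 46 members the log2 difference was smaller than 0.2 in either direction. Another 14 lay between a difference of -0.2 and the lower threshold, and 5 between 0.2 and the upper one. The share of all genes in these ranges was not counted, so the counts are no result about the members. The quartiles of the difference were -0.30 and 0.10 over the members and -0.17 and 0.17 over all genes. The only measure of error within these arrays was the disagreement of 2 probe sets of a gene, which over 5594 genes, both of whose brightest probe sets lay above the medians, corresponded to an SD of 0.20 in a log2 difference. Among the 21 members with such a pair, the SD was 0.14. Over all 28 members with at least 2 probe sets, dim ones included, the SD was 0.28, against 0.23 over all such genes. The pairs of GSTA4 and TXNRD1 enter only this wider set. Either SD covers differences between probes and not between cultures. RNA comes from the whole culture, so fewer cells with a transcript and less of it per cell cannot be told apart.

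**Figure D1:**
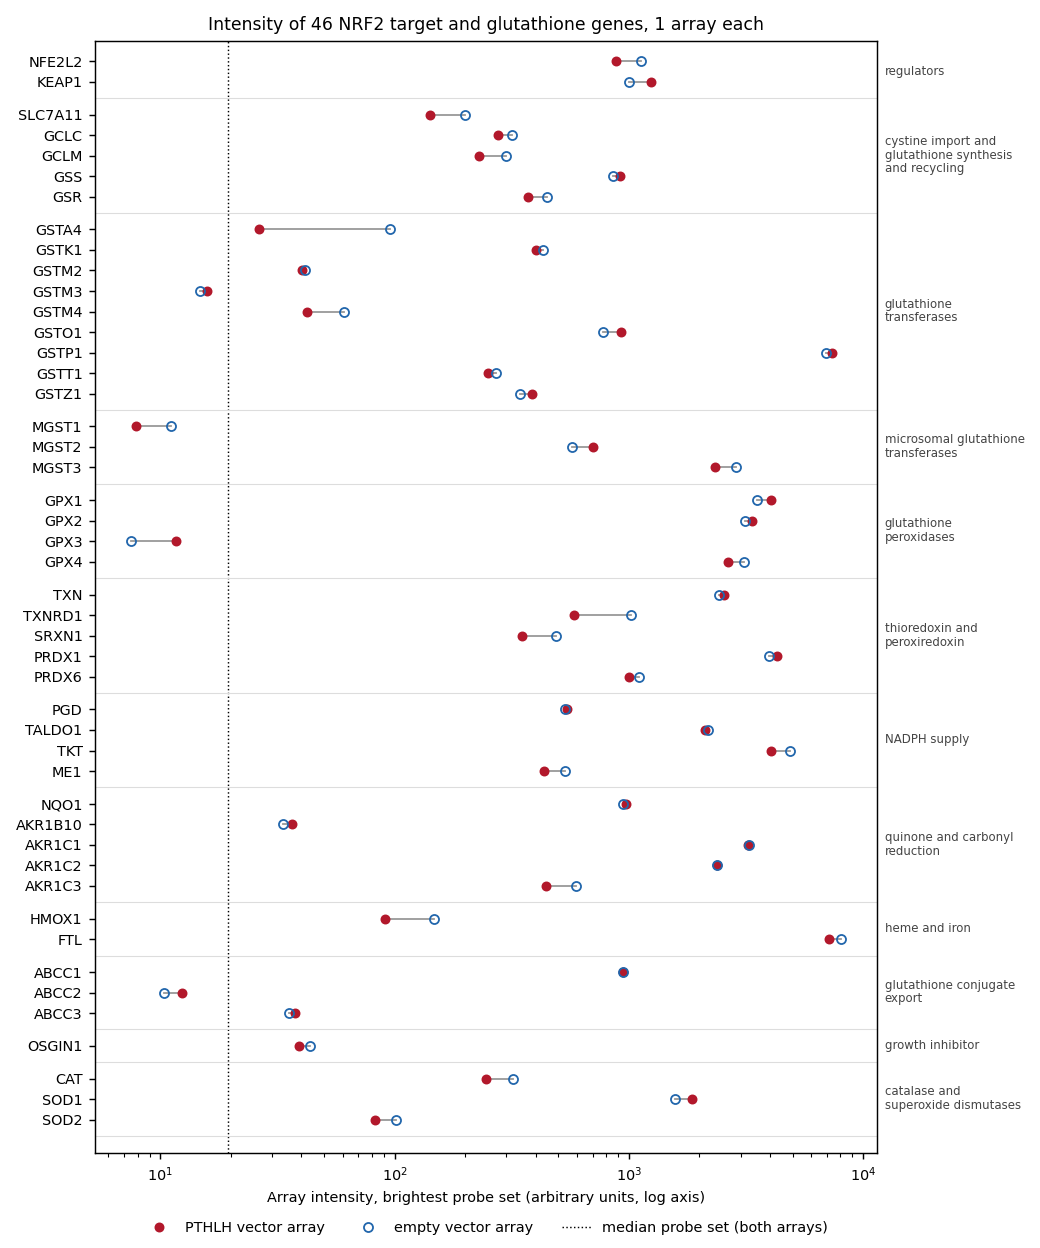
Intensity of each of the 46 genes by its brightest probe set, in arbitrary units on a log axis, with the PTHLH vector array as filled red points and the empty vector array as open blue points, 1 array each, joined by a line and grouped by role. The longest line is that of GSTA4 (26.3 against 95.3), and GSTM3, MGST1, GPX3 and ABCC2 lie left of the dotted array median.

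Neither regulator passed 1.5-fold. NFE2L2, which encodes NRF2 itself, had an intensity of 883 on the PTHLH array and 1129 on the empty vector array, a log2 difference of -0.35. KEAP1, its inhibitor, had 1242 on the PTHLH array and 1006 on the empty vector array, a difference of 0.30. The other 2 probe sets of NFE2L2 were much dimmer and had differences of -0.05 and -0.15, while KEAP1 had 1 probe set. NRF2 is known to be controlled mainly as a protein, which these arrays do not measure.

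None of the 5 genes for the supply of glutathione passed 1.5-fold. SLC7A11, the cystine importer that feeds glutathione synthesis, had 142 on the PTHLH array and 199 on the empty vector array (log2 difference of -0.49). GCLM, the modifier subunit of the rate-limiting ligase, had 230.2 on the PTHLH array and 298 on the empty vector array (-0.37). Its 3 probe sets, all above both medians, lay between -0.37 and -0.22. GCLC, the catalytic subunit of the same ligase, had 277 and 317 on the PTHLH and empty vector arrays (-0.19), and its second probe set had -0.20. GSR, which reduces oxidised glutathione, had 371 and 449 on these arrays (-0.27), but its second probe set had 0.05. GSS, the synthase of the last step, had 919.6 on the PTHLH array and 856 on the empty vector array (0.10), and its second probe set also lay above 0 (0.05). Over these 5 genes the median difference was -0.27, and 8 of their 11 probe sets above both medians were below 0. Several of these probe sets read the same gene, and the share over all probe sets at such levels was not counted. Counted by gene, 4 of the 5 were below 0, beside 48.6% of all genes at such levels. The 5 differences lay between -0.49 and 0.10, beside the probe set SD of 0.20.

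Among the 9 glutathione transferases, GSTA4 was the only one past 1.5-fold by its brightest probe set. GSTA4, which conjugates 4-hydroxynonenal and other products of lipid peroxidation, had 26.3 on the PTHLH array and 95.3 on the empty vector array, a log2 difference of -1.85 (3.62-fold lower). The PTHLH value of GSTA4 lies close to the median of that array (19.4) and was not shown to be above background, so the size of the fold is uncertain. Its second probe set, below both medians, had 8.04 on the PTHLH array and 13.9 on the empty vector array (-0.79). Both probe sets of GSTA4 were thus lower with PTHLH. GSTP1, the pi-class enzyme, had 7334 on the PTHLH array and 6913 on the empty vector array (0.09). GSTO1, of the omega class, had 925 and 778 (0.25), and its second probe set had 0.19. GSTZ1, which acts in tyrosine breakdown, had a difference of 0.18, GSTK1, the kappa-class enzyme of mitochondria and peroxisomes, of -0.09, and GSTT1, of the theta class, of -0.11. The last had a second probe set of 0.17. Including GSTA4, the median over the 9 transferases was -0.04.

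The mu-class genes are similar in sequence to differing degrees, and probe sets of some can bind more than 1 of them. GSTM4 had 42.5 on the PTHLH array and 60.6 on the empty vector array (-0.51), and its second probe set, below the median of the PTHLH array, had -0.69. GSTM2, read from a probe set marked as able to cross-hybridise (suffix x) as was that of GSTM4, had 40.4 and 41.5 (-0.04). GSTM3 had 15.8 on the PTHLH array and 14.8 on the empty vector array (0.10), but its other probe set had 9.83 and 15.4 (-0.65), and both were below the array medians. The direction of GSTM3 depended on the probe set, and no single member of this class can be singled out from these values. Of the microsomal enzymes, which sit in membranes, MGST2 had 701 and 569.9 on the PTHLH and empty vector arrays (0.30) and MGST3 had 2337 and 2862 (-0.29). A second probe set of MGST3 above both medians held the same value on both arrays. All 5 probe sets of MGST1 were below both medians, with differences between -0.50 and 0.37.

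Of the 4 glutathione peroxidases, 3 lay within 1.5-fold. GPX1, the cytosolic enzyme, had 4038 on the PTHLH array and 3531 on the empty vector array (0.19). GPX2, the epithelial form and a known NRF2 target, had 3349 and 3137 on these arrays (0.09). GPX4, which reduces lipid peroxides in membranes and protects from ferroptosis, had 2652 and 3108 (-0.23). GPX3, the secreted plasma form, was 1.55-fold higher by its brightest probe set (11.6 on the PTHLH array and 7.49 on the empty vector array). The intensities of GPX3 were below both array medians, its second probe set had the same value on both arrays, and with a floor at percentile 40 of each array the difference was -0.0029. The higher value of GPX3 therefore rests on values in the dim range.

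**Figure D2:**
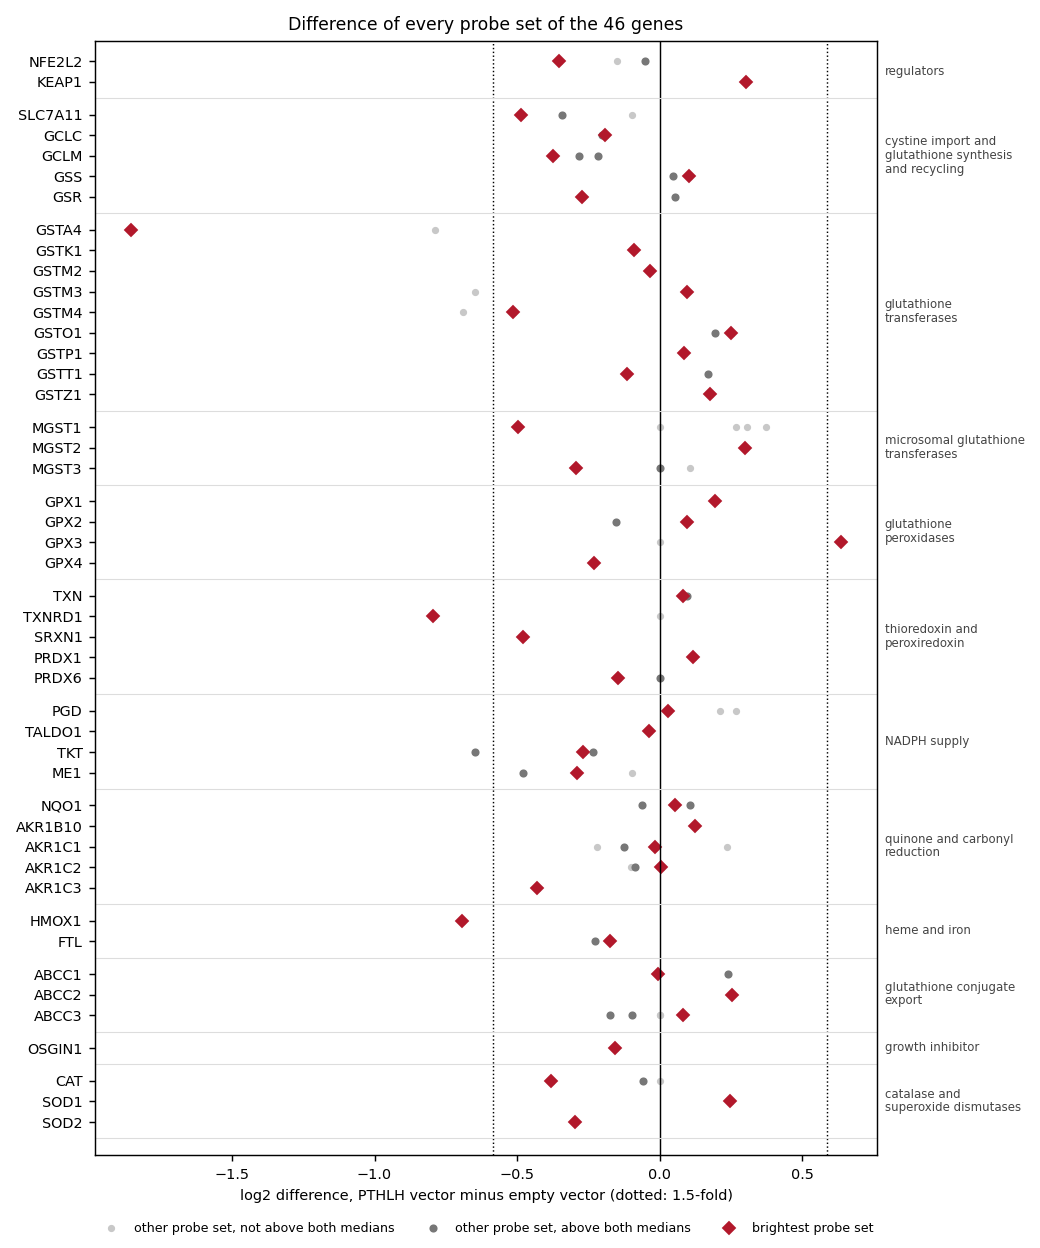
Log2 difference, PTHLH vector minus empty vector, for all 94 probe sets of the 46 genes, with the brightest probe set of each gene as a red diamond, others above both array medians in dark grey and the remaining ones in light grey. GSTA4, TXNRD1 and HMOX1 lie left of the dotted line of 1.5-fold by their brightest probe set, whereas the 3 probe sets of NQO1 lie around 0, between -0.06 and 0.11.

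In the thioredoxin system the reductase TXNRD1 was the only member past 1.5-fold. TXNRD1, the selenoprotein that reduces thioredoxin with NADPH, had 586 on the PTHLH array and 1017 on the empty vector array, a log2 difference of -0.80 (1.74-fold lower). Its only other probe set was at 3.69 on both arrays, far below the medians, so the value rests on 1 probe set. SRXN1, sulfiredoxin, which repairs overoxidised peroxiredoxins, had 351 on the PTHLH array and 489 on the empty vector array (-0.48), within 1.5-fold and also from 1 probe set. TXN, the thioredoxin that TXNRD1 reduces, had 2557 and 2416 on the PTHLH and empty vector arrays (0.08), and its second probe set had 0.10. PRDX1, a peroxiredoxin, had 4312 and 3983 (0.11). PRDX6, a peroxiredoxin that uses glutathione, had 1001 and 1109 (-0.15), with a second probe set at 0.00.

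The 4 genes listed under the supply of NADPH, the electron donor of both systems, lay between -0.29 and 0.03 by their brightest probe sets. Of these, PGD and ME1 make NADPH, whereas TALDO1 and TKT do not make it themselves. PGD, of the oxidative pentose phosphate pathway, had 547 on the PTHLH array and 535 on the empty vector array (0.03). TALDO1, transaldolase, had 2114 and 2172 (-0.04). TKT, transketolase, had 4059 on the PTHLH array and 4898 on the empty vector array (-0.27), a second probe set of -0.23 and another one, of 281.5 and 441 on these arrays, of -0.65. All 3 probe sets of TKT were above both medians. Only the dimmest of them passed 1.5-fold, and it is the only one without suffix x or s. ME1, the cytosolic malic enzyme, had 436 and 534 (-0.29), and its second probe set had -0.48. Over the class the median was -0.15.

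Quinone and carbonyl reductases included the members most often used as NRF2 markers. NQO1, the quinone reductase, had 977 on the PTHLH array and 942 on the empty vector array, a log2 difference of 0.05. Its other probe sets had 0.11 and -0.06, so all 3 were near 0. AKR1C1 and AKR1C2, aldo-keto reductases with nearly identical sequences, had differences of -0.02 and 0.00, and their brightest probe sets carry the suffix x. AKR1C3, a relative with prostaglandin F synthase activity, had 442 and 596 on the PTHLH and empty vector arrays (-0.43) from 1 probe set without that suffix. AKR1B10, which reduces retinal and other aldehydes, had 36.5 and 33.5 (0.12). The markers of this class did not share a direction.

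HMOX1, the inducible heme oxygenase that splits heme into biliverdin, iron and carbon monoxide, had 90.8 on the PTHLH array and 147 on the empty vector array, a log2 difference of -0.69 (1.62-fold lower), from 1 probe set. FTL, the light chain of ferritin, which stores iron, had 7146 and 8069 (-0.18), and its second probe set had -0.23. Of the measured genes of heme and iron, HMOX1 thus passed the threshold and FTL did not.

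The exporters of conjugates were dim or level. ABCC1, the main pump for glutathione conjugates, had 943 on the PTHLH array and 947 on the empty vector array (-0.01), and its second probe set had 0.24. ABCC2 lay below both medians with 12.4 and 10.4, and ABCC3 had 37.6 and 35.6 (0.08) with 2 further probe sets above both medians at -0.18 and -0.10. OSGIN1, an oxidative stress-induced growth inhibitor, had 38.9 and 43.4 (-0.16). CAT, catalase, had 247 on the PTHLH array and 321 on the empty vector array (-0.38), but a dimmer probe set had -0.06. SOD1, the cytosolic superoxide dismutase, had 1868 and 1575 (0.25), and SOD2, the mitochondrial one, had 82.6 and 101 (-0.30) by the only probe set that names it alone. None of these 7 genes passed 1.5-fold.

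Across the 21 members with at least 2 probe sets above both medians, 9 had all such probe sets below 0, namely NFE2L2, SLC7A11, GCLC, GCLM, TKT, ME1, AKR1C1, FTL and CAT. In 3, GSS, GSTO1 and TXN, all were above 0, and in the remaining 9 they held both signs or a value of 0. These counts are 42.9% and 14.3% of the 21 members, beside 25% and 31% of all 5599 genes with at least 2 such probe sets, and they are a description of a list chosen with results known. TXNRD1, HMOX1, SRXN1 and AKR1C3, which had some of the lower differences, have no second probe set at such levels that could be compared.

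**Figure D3:**
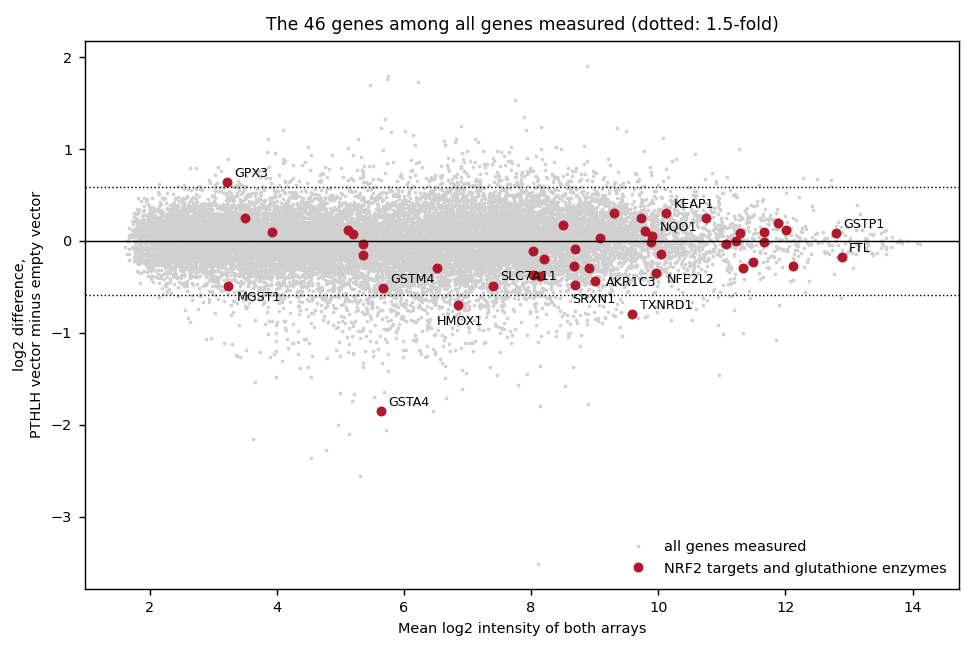
Log2 difference, PTHLH vector minus empty vector, against the mean log2 intensity of both arrays, for the 46 genes (red) among all 19775 genes measured (grey), each by its brightest probe set. GSTA4 at -1.85 lies at the lower edge of the cloud, TXNRD1 at -0.80 and HMOX1 at -0.69 lie below the dotted line of 1.5-fold, and NQO1, GSTP1 and FTL lie close to 0.

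Other genes of the pathway were taken from a list by role of 108 genes, compiled with earlier results of these arrays known, of which 98 were measured. Of these, 4 were at least 1.5-fold lower (4.08%, against 3.52% of all genes) and 3 at least 1.5-fold higher (3.06%, against 1.97%), and the median log2 difference was -0.01. The shares were near those of all genes. The study's own pathway analysis of these arrays already lists MAFF, GSTO2 and CREBBP under an NRF2 oxidative stress response. GSTA4, TXNRD1 and HMOX1 of the members are listed there too. GSTO2, the second omega-class transferase, had 23.2 on the PTHLH array and 45.9 on the empty vector array (-0.99), and its second probe set had -0.39. The PTHLH value of GSTO2 lies close to the median of that array (19.4), and its second probe set was below that median. The size of its fold is thus uncertain. IDH2, the mitochondrial isocitrate dehydrogenase that makes NADPH, had 349.9 and 637 (-0.87), with a second probe set of -0.74. TXNIP, which binds and inhibits thioredoxin, had 664 and 1177 (-0.83), and its 3 probe sets lay between -0.83 and -0.65. MAFF, a small MAF partner of NRF2, had 180.1 and 272 (-0.59), just past the threshold, and a second probe set of -0.37. These 4 genes were lower by every probe set they have, but with the median over probe sets MAFF no longer passed 1.5-fold.

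On the higher side, MTHFD1, the cytosolic folate enzyme that can make NADPH, had 394 on the PTHLH array and 213 on the empty vector array (0.89), and its second probe set, below both medians, had -0.16. CREBBP, an acetyltransferase that acts as a coactivator of NRF2 and of many other factors, had 641 and 392 (0.71), with 4 probe sets between 0.08 and 0.71. ALDH3A1, an aldehyde dehydrogenase of squamous epithelia, had 21.1 and 12.8 (0.72) from 1 probe set that was above the median of the PTHLH array only. With the median over probe sets neither MTHFD1 nor CREBBP passed 1.5-fold. Within the thioredoxin group of this list, TXNRD2, the mitochondrial reductase, had 249 on the PTHLH array and 189.6 on the empty vector array (0.40), where cytosolic TXNRD1 had -0.80. PRDX2, PRDX3 and PRDX4 had differences of 0.09, 0.08 and 0.15, and the 4 probe sets of PRDX2 held both signs, between -0.22 and 0.16. The glutaredoxins held both signs too, with -0.30 for GLRX, 0.22 for GLRX2, 0.23 for GLRX3 and 0.00 for GLRX5. BACH1, the repressor that competes with NRF2 on HMOX1, had 85.8 and 76.7 (0.16).

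**Figure D4:**
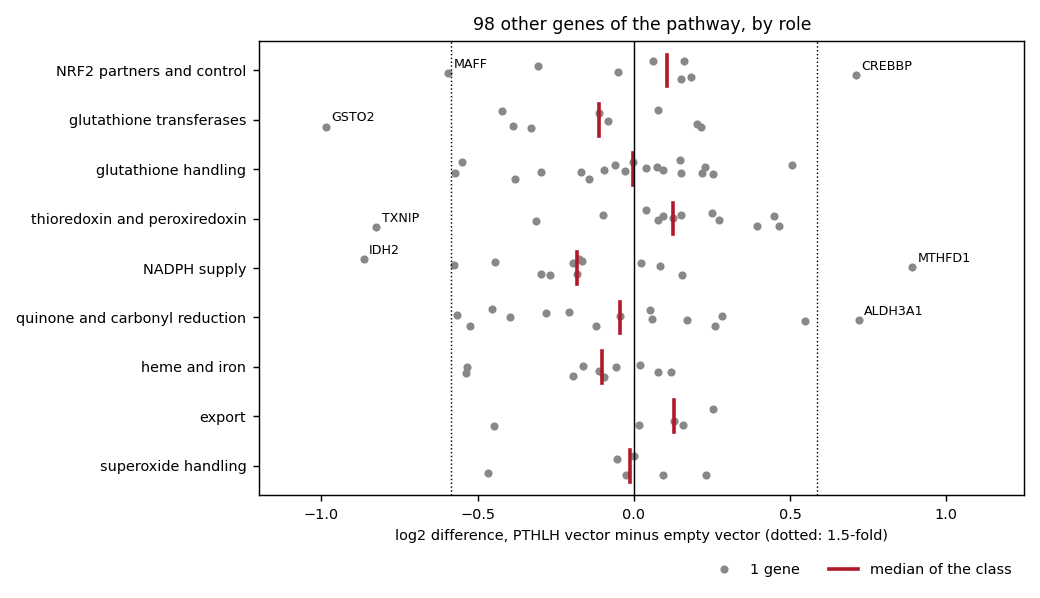
Log2 difference, PTHLH vector minus empty vector, for 98 other genes of the pathway (grey points) in 9 groups by role, with the median of each group as a red line and dotted lines at 1.5-fold. The 4 named points on the left are GSTO2, IDH2, TXNIP and MAFF, the 3 on the right are MTHFD1, ALDH3A1 and CREBBP, and the group medians lie between -0.18 and 0.13.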

How the data were processed

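RNA from 1 culture of Ca9-22 cells with a PTHLH vector and 1 with an empty vector was hybridised, 1 U133 array of Affymetrix per culture. The deposited file holds an intensity on a linear scale for every probe set. How the scans were corrected for background, normalized and summarised is not stated in the labels or methods, and this could change small differences and dim values most. Samples were grouped by the expression characteristic and the titles.

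Differences were taken on the log2 scale, PTHLH minus empty vector, without further scaling. Probe sets were named through the platform annotation and current RefSeq symbols (GRCh38.p14). Of 54675 probe sets, 41097 had 1 symbol and were used, 1801 had several and 11777 are unnamed here. All 46 measured members matched by current symbol. A gene was read from its brightest probe set, and changes of at least 1.5-fold were counted. With 1 array per group no test could be run, and the small number of arrays limits the precision. The counting was tested on simulated data with larger changes than those of all genes named as changed except GSTA4. That checked the code only and cannot show how reliable calls near 1.5-fold are. The members and lists were chosen with earlier results of these data known. All members may be named, and of the other pathway genes those at least 1.5-fold changed with the brightest probe set above the median of at least 1 array. BACH1, TXNRD2, the glutaredoxins, PRDX2, PRDX3 and PRDX4 were chosen after their values were seen, as were the promoter letters and the promoters shown. Alternatives were quantile normalization, centring, other probe set choices, handling of dim values and a 2-fold threshold. Python 3.11.15, pandas 2.3.3, numpy 2.4.6 and matplotlib 3.10.9 were used.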

Additional observations from a re-analysis of the deposited data

How the results depend on the processing

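No paired analysis was possible because each group has 1 array. Centring on the brighter probe sets moved nothing, since its shift was 0. Quantile normalization left the members counted as higher (GPX3) and lower (GSTA4, TXNRD1, HMOX1) as they were. The count of higher members was 0 with the median over probe sets, without probe sets of suffix x or s, without dim genes, with a floor at percentile 40 (where GPX3 had -0.0029) and at a 2-fold threshold. The count of lower members was 6 when the most changed probe set was taken, which added GSTM3, GSTM4 and TKT, and 1, GSTA4, at 2-fold. Without suffix x or s the count was 4 of 38 members, with TKT added. With the median over probe sets it was again 3, but GSTM4 took the place of TXNRD1, whose second probe set is dim and level. With the median over probe sets MAFF, CREBBP and MTHFD1 of the other pathway genes lost their calls and GPX8 was counted as higher. Of these genes, 6 were higher by the most changed probe set, and at 2-fold 0 were higher and 0 lower. The median of the microsomal transferases was 0.27 with the median over probe sets, 0.11 without suffix x or s, 0.0036 without dim genes and -0.0029 with the floor, against -0.29. Without suffix x or s the median of the NADPH genes was -0.48 and that of heme and iron, then HMOX1 alone, -0.69. The median of catalase and the superoxide dismutases was -0.059 with the median over probe sets. Of 106 counts and medians recomputed by the other alternatives, 89 stayed within 1.5 times or, for medians, within 0.23 of the main value. That is the SD between probe sets over all genes with at least 2 of them. Most class medians were smaller than this in size, so a change of sign could pass as staying. Values below the array medians cannot rank genes.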

Other observations

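A few probe sets that name a member together with another gene entered no count. SOD2 shares 4 of them with SOD2-OT1, a transcript at the same locus. They had log2 differences, PTHLH minus empty vector, of 0.30, 0.12, -0.12 and -0.10, so they hold both signs, where the probe set that names SOD2 alone had -0.30. The direction of SOD2 is thus not settled by these probe sets. A probe set shared by AKR1C1 and AKR1C2 had 52.0 on the PTHLH array and 51.8 on the empty vector array. A probe set shared by NFE2L2 and CSNK2A1 had 39.1 and 44.6 on these arrays, a difference of -0.19.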
